A study of Mus musculus with 24 samples.

Results

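Betacellulin (Btc) and heparin-binding EGF-like growth factor (Hbegf) were the EGF receptor ligands that rose in mouse liver after bile duct ligation at both times examined. Hbegf was called in every alternative analysis at both times, and Btc in every one at 28 d but in 7 of 15 at 48 h. They belong to a set of 8 genes chosen by symbol: the EGF receptor Egfr, its ligands Areg, Ereg, Hbegf, Btc and Tgfa, hepatocyte growth factor Hgf and its receptor Met. Each symbol was represented by its brightest annotated probe set, and 7 of the 8 were measured, each by 1 probe set, among 18820 gene symbols. Areg, which encodes amphiregulin, was not analysed here because no probe set was assigned to its symbol in the annotation used. Values are log2 intensities, on which a difference of 1 is a doubling of intensity.

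The 24 arrays came from livers of male mice on a C57/BL6 background, 3 per group. JNK1-/- mice lacked the stress kinase JNK1 in all cells. JNK1Δhepa mice carried the floxed gene together with Cre driven by the albumin promoter, a design meant to delete it in hepatocytes. Control mice were JNK1f/f, with the floxed alleles and no Cre. All 3 genotypes underwent bile duct ligation (BDL), which blocks the flow of bile, and only control mice gave sham-operated livers. Livers were taken 28 d after surgery at an age of 12 weeks, or 48 h after surgery at 8 weeks, so that age and time after surgery go together. The null strain was purchased and the floxed strain was donated, and the labels do not describe littermates or pooling. No sham-operated mutant was analysed here, so a difference between ligated genotypes cannot be divided into a resting part and a response.

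The EGF receptor is a tyrosine kinase of the cell surface. Its ligands are made as membrane-anchored precursors that proteases shed, and in rodent liver the receptor and its ligands are best known for driving hepatocyte division after tissue loss. Hepatocyte growth factor is made mainly by mesenchymal cells of the liver, among them hepatic stellate cells. It is secreted as an inactive chain, is cleaved by serine proteases, and acts on epithelial cells through the receptor Met. JNK1 phosphorylates Jun, a subunit of the transcription factor AP-1.

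Promoter windows are shown for the genes whose levels changed and whose window was in the promoter table used, since JNK1 acts through AP-1. The RefSeq table on GRCm38.p6 gave 7 windows for 6 of the 8 genes, each of 300 bases from 250 before to 50 after a transcript start. Each is written 5′ to 3′ on the strand of its gene, and capitals mark an AP-1 motif, TGANTCA. That motif and the cyclic AMP response element TGACGTCA were searched on both strands, and neither contains the other.
Btc, chr5:91402945-91403244, minus strand: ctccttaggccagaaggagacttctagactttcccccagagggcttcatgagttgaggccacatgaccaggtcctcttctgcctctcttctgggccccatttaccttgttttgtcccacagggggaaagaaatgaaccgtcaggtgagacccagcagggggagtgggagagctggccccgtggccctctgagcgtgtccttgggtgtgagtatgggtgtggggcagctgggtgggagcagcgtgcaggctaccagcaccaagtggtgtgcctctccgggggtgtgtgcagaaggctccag
Tgfa, chr6:86194972-86195271, plus strand: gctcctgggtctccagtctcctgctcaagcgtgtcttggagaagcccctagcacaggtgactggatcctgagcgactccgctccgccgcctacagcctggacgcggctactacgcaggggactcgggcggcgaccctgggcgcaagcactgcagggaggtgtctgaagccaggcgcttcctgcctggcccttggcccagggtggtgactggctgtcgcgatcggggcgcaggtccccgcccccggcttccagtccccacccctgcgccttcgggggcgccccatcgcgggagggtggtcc
Met, chr6:17463707-17464006, plus strand: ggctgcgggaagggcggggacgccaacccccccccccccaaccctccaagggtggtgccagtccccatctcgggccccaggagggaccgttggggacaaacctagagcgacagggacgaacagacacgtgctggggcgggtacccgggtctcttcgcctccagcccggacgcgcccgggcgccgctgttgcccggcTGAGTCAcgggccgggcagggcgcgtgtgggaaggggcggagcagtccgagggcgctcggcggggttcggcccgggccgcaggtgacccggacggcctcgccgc

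The window of Met held 1 AP-1 motif, which begins at position -54 from the transcript start. Windows of Btc, Tgfa, Egfr and Hgf held neither set of letters, and that of Areg held 1 cyclic AMP response element. Across 32851 windows of the table, 7.81% held the AP-1 letters and 1.79% the other motif. These are matches of letters in short windows. Ereg, Areg and Btc stand in a row on chromosome 5 behind Epgn, which encodes a further EGF receptor ligand, with no other protein-coding gene between them in that annotation.

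Library quality was examined through the targeted gene, Mapk8, and through correlations between arrays. Mapk8 read 5.18 to 6.17 in the 6 JNK1-/- livers, below every other array. Among the JNK1Δhepa livers the array labelled 28 d replicate 1 read 7.67, at the level of ligated controls, and the others read 6.76 to 6.97. The 3 arrays labelled control sham 48 h read 6.67, 6.86 and 6.93, below every other control array. Whether these probes lie inside the deleted exons is not given in the sources used here. Replicate 1 of ligated control liver at 28 d correlated best with replicate 1 of JNK1Δhepa at 28 d (r = 0.9934) and at most 0.9841 with its own group. Replicates 2 and 3 of that control group correlated best with the same-numbered arrays of JNK1-/- at 28 d (r = 0.9944 and 0.9876). With their own group they reached at most 0.9848. Replicate 1 of JNK1-/- at 48 h correlated 0.9840 and 0.9863 with its group. The spread was widest in ligated control liver at 28 d (median SD over genes 0.187, elsewhere 0.115 to 0.139). For differences of the 7 genes that leaving out these arrays moved most, the values without them stand beside the main ones.

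**Figure D1:**
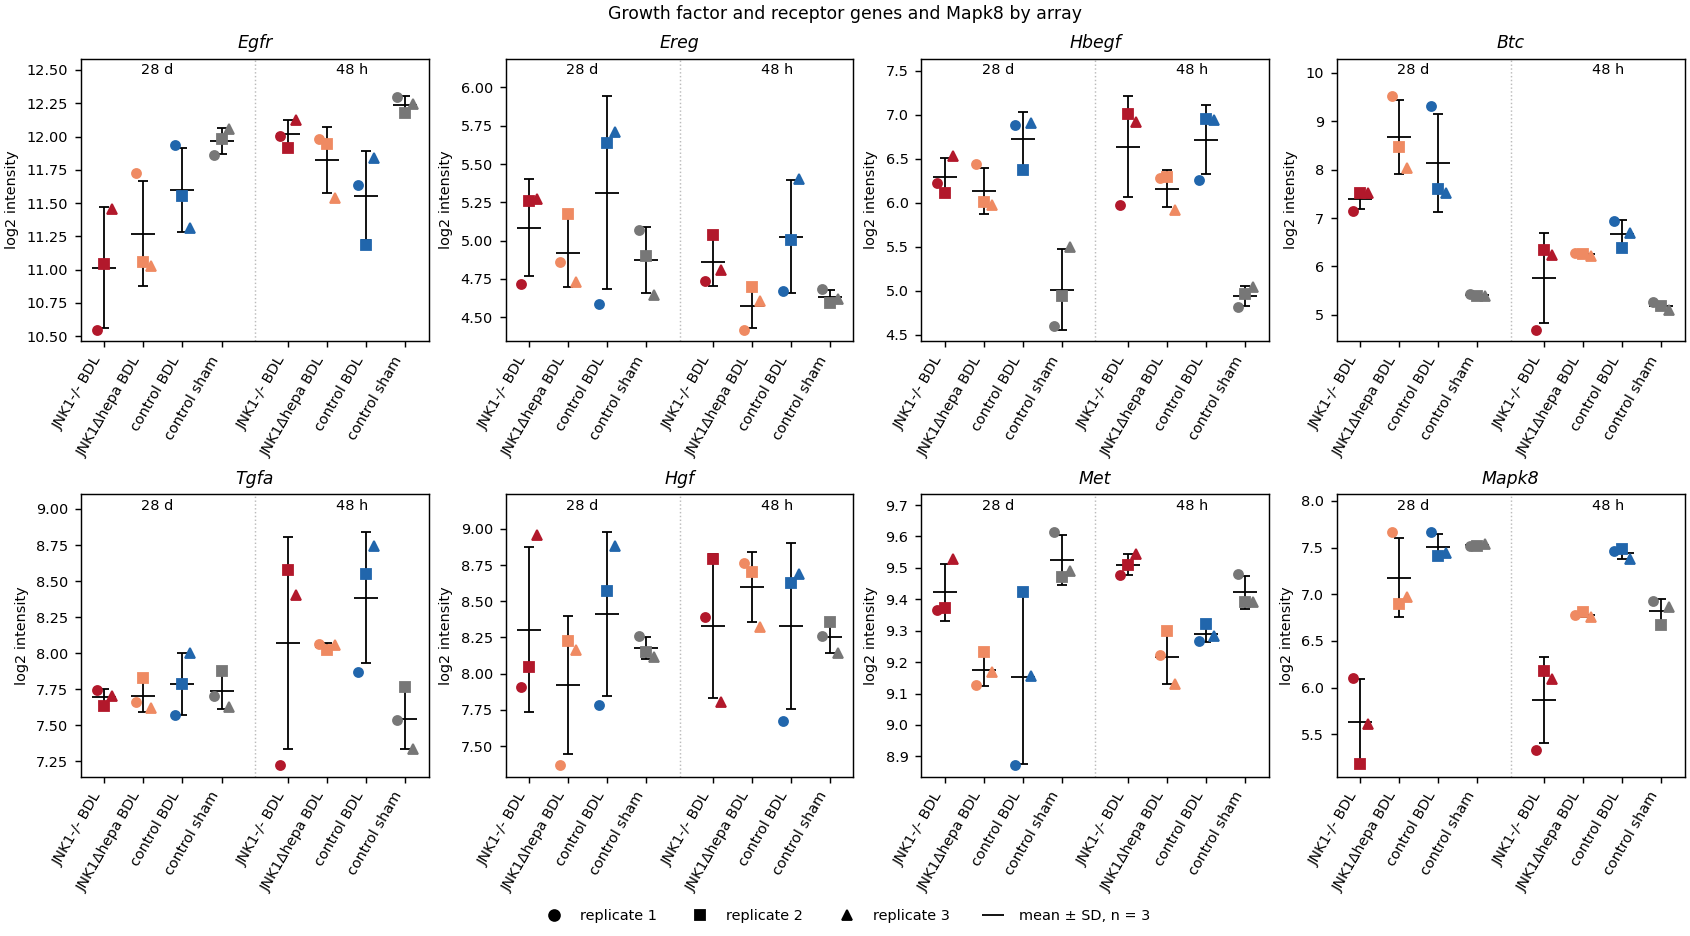
Log2 intensity (y axes) of the 7 measured genes and of the targeted gene Mapk8 on each of the 24 arrays, with 28 d left and 48 h right of the dotted line in each panel; symbols stand for replicates, horizontal bars for group means and error bars for the SD (n = 3). Hbegf was 5.92 or higher in every ligated liver and 5.50 or lower in every sham liver, while the largest spread within a group was that of Btc in ligated control liver at 28 d.

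After 28 d of ligation in control liver, Hbegf and Btc rose and Met fell, 3 of the 7 measured genes. Over all genes in that comparison, 23.2% were called at an adjusted p under 0.05 by limma, 11.7% upward and 11.5% downward. At 48 h Hbegf, Btc and Tgfa rose and none of the 7 fell, where 9.43% of all genes were called, 5.61% upward and 3.83% downward. The median log2 difference of the 7 genes was 0.24 at 28 d and 0.39 at 48 h, beside -0.03 at each time over all genes. The genes share arrays, so these counts describe the set and are not a test of it.

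Hbegf encodes a ligand of the EGF receptor and of ERBB4 that binds heparan sulfate. Its log2 intensity was 6.89, 6.37 and 6.91 in ligated control livers at 28 d, against 4.60, 4.94 and 5.50 in sham livers of that time. The 48 h readings were 6.26, 6.95 and 6.94 after ligation, against 4.81, 4.96 and 5.05 on the arrays labelled control sham. Ligated and sham values did not overlap at either time.

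The rise was 3.26-fold at 28 d (log2 difference 1.71, SE 0.26, adjusted p = 9.33e-05 by limma, n = 3 per group). The 48 h rise was 3.42-fold (log2 difference 1.78, SE 0.26, adjusted p = 0.000277). The ligation effect differed between the times by -0.07 (95% interval -0.84 to 0.70). Hbegf was called in each of the 14 alternatives tried at 28 d and the 15 at 48 h, among them the use of the 28 d sham arrays for 48 h (3.25-fold, adjusted p = 0.00102). Across genotypes, all 18 ligated livers read above all 6 sham livers. In bulk liver, a change in the number of cells of a type and a change in RNA per cell cannot be told apart.

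Btc encodes betacellulin, a ligand of the EGF receptor and of ERBB4. At 28 d its log2 intensity was 9.31, 7.60 and 7.52 in ligated control livers, against 5.43, 5.39 and 5.40 in sham livers. At 48 h the values were 6.95, 6.39 and 6.70 after ligation, against 5.26, 5.18 and 5.10 on the arrays labelled control sham. The groups were apart at both times, and replicate 1 at 28 d stood far above its group.

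The rise of Btc was 6.66-fold at 28 d (log2 difference 2.74, SE 0.42, adjusted p = 0.000104 by limma). Without the high replicate 1, the log2 difference was 2.15 with adjusted p = 0.00043, and every other alternative at 28 d also kept the call. At 48 h the rise was 2.82-fold (log2 difference 1.50, SE 0.42, adjusted p = 0.0291). That call was lost without any 1 of the 6 arrays (adjusted p 0.0502 to 0.0964) and with the sham arrays of 28 d in place of those labelled 48 h (log2 difference 1.27, adjusted p = 0.0815). The ligation effect was larger at 28 d by 1.24, with a 95% interval of -0.01 to 2.49 and adjusted p = 0.338, so that the difference between the times did not pass the test. It was 0.66 (adjusted p = 0.641) without ligated replicate 1 of 28 d.

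Tgfa encodes transforming growth factor alpha, a ligand of the EGF receptor that regenerating hepatocytes make. In ligated control livers at 28 d it read 7.57, 7.79 and 8.00, against 7.71, 7.87 and 7.63 in sham livers, and the ranges overlapped. After 48 h Tgfa read 7.87, 8.55 and 8.74 with ligation, against 7.54, 7.76 and 7.34 on the arrays labelled control sham, with no overlap.

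Tgfa rose 1.79-fold at 48 h (log2 difference 0.84, SE 0.25, adjusted p = 0.0381 by limma). The call was lost in 5 of the 6 fits that left out 1 array (adjusted p up to 0.179) and with the sham arrays of 28 d (log2 difference 0.65, adjusted p = 0.125). The difference at 28 d was 0.05 (95% interval -0.47 to 0.57). Between the times the effect differed by -0.79 (95% interval -1.53 to -0.05, adjusted p = 0.296).

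Ereg encodes epiregulin, a ligand with a strong response to inflammatory signals. It read 4.59, 5.64 and 5.71 in ligated control livers at 28 d, against 5.07, 4.90 and 4.65 in sham livers. The 48 h values were 4.67, 5.001 and 5.40 after ligation, against 4.68, 4.59 and 4.62 on the arrays labelled control sham. Replicate 1 of each ligated group lay within or below the sham range, and the other ligated values lay above it.

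The Ereg difference was 0.44 at 28 d (SE 0.24, adjusted p = 0.196) and 0.39 at 48 h (SE 0.24, adjusted p = 0.345), and neither passed the test. Without replicate 1 of the ligated controls at 28 d it became 0.80 with adjusted p = 0.00543, and against the sham arrays of 28 d the 48 h difference was 0.15 (adjusted p = 0.79). The file holds no detection calls, and whether these low readings stand above background is not known. The same holds for Hbegf and Btc in sham liver, where a fold change may be compressed.

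Egfr itself was lower after ligation at both times without passing the test. It read 11.94, 11.55 and 11.31 in ligated control livers at 28 d, against 11.86, 11.98 and 12.06 in sham livers. The ligated livers of 48 h read 11.64, 11.19 and 11.84, against 12.30, 12.18 and 12.25 on the arrays labelled control sham. The 48 h groups were apart, and at 28 d replicate 1 of the ligated livers lay inside the sham range.

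The log2 difference of Egfr was -0.37 at 28 d (SE 0.22, adjusted p = 0.247) and -0.68 at 48 h (SE 0.22, adjusted p = 0.0541). The 48 h difference lay near the threshold and passed in 5 of 15 alternatives. It was -0.85 (adjusted p = 0.0174) with each array centred on its median, -0.78 (adjusted p = 0.00341) with array weights and -0.83 (adjusted p = 0.0455) without ligated replicate 3, and it read -0.41 (adjusted p = 0.309) against the sham arrays of 28 d. Over the 3 genotypes, 12 of the 18 ligated livers read below every sham liver and none above every sham liver.

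Met, the receptor for hepatocyte growth factor, fell by a small amount at 28 d. It read 8.87, 9.42 and 9.16 in ligated control livers at that time, against 9.62, 9.47 and 9.49 in sham livers, which all lay higher. The 48 h values of Met were 9.27, 9.32 and 9.28 after ligation, against 9.48, 9.39 and 9.39 on the arrays labelled control sham, again without overlap.

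The log2 difference of Met was -0.37 at 28 d (SE 0.10, adjusted p = 0.00963 by limma), a 1.30-fold lower level. Without replicate 1 of the ligated livers it was -0.23 with adjusted p = 0.0632, and with array weights -0.17 with adjusted p = 0.112, so the call was lost in both. At 48 h the difference was -0.13 (SE 0.10, adjusted p = 0.475). The AP-1 letters printed above for Met are a feature of its sequence alone and carry no information on binding here.

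Hgf did not pass the test for ligation at either time. It read 7.78, 8.57 and 8.88 in ligated control livers at 28 d, against 8.26, 8.15 and 8.12 in sham livers. At 48 h the readings were 7.67, 8.62 and 8.69 after ligation, against 8.26, 8.36 and 8.14 on the arrays labelled control sham. In each ligated control group 1 array lay below all sham livers and the other arrays above them.

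The log2 difference of Hgf was 0.24 at 28 d (95% interval -0.45 to 0.92, adjusted p = 0.654) and 0.08 at 48 h (-0.61 to 0.76, adjusted p = 0.922). Without ligated replicate 1 the 28 d difference was 0.55 (adjusted p = 0.263). The SD of Hgf was 0.24 to 0.57 in the 6 ligated groups and 0.08 and 0.11 in the sham groups. The array with the lowest Hgf was also the array with the lowest mean of 10 stellate cell and fibroblast markers in 5 of the 6 ligated groups, and the order of all 3 arrays was the same in 4 of them.

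**Figure D2:**
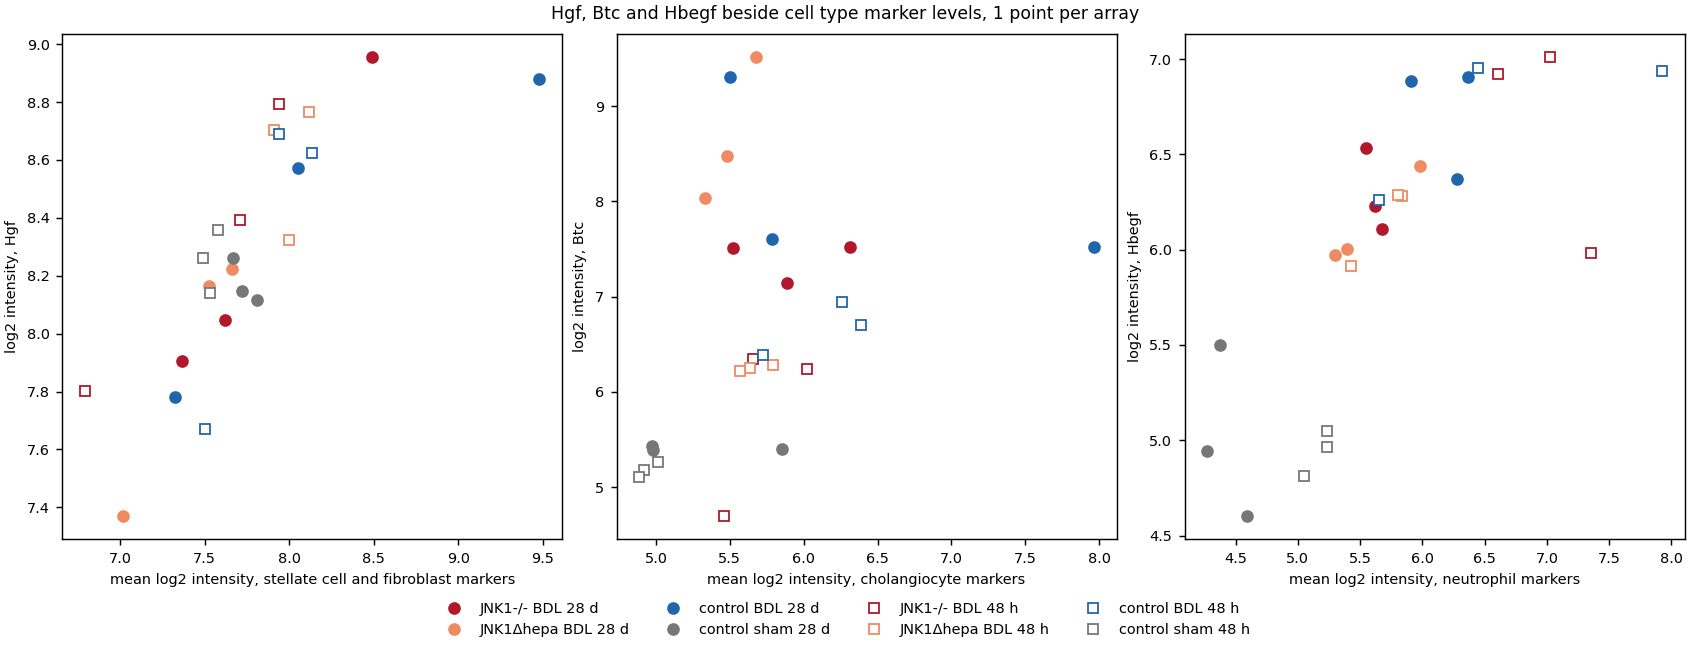
Log2 intensity of Hgf, Btc and Hbegf (y axes) against the mean log2 intensity of the stellate cell and fibroblast, cholangiocyte and neutrophil markers on the same array (x axes), 1 point per array, filled circles for 28 d and open squares for 48 h. The lowest Hgf value and the lowest stellate marker mean fall on the same array in 5 of the 6 ligated groups. The control array with the highest cholangiocyte mean, 7.96, has a Btc level of 7.52. The control array with the highest Btc level, 9.31, has a cholangiocyte mean of 5.50. Btc and the cholangiocyte mean run in the same order over the arrays of both JNK1Δhepa groups and of no other ligated group. In the JNK1Δhepa group of 48 h Btc spans only 6.22 to 6.28.

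Markers of other liver cells moved with ligation, and their part in the results above was not tested. The mean of the stellate markers at 28 d spanned 7.33 to 9.48 in ligated control livers, against 7.67 to 7.81 in sham livers. At 48 h it spanned 7.50 to 8.14 after ligation, against 7.49 to 7.58 on the arrays labelled control sham. Of these 10 markers 1 rose at 28 d (Col1a1, a fibrillar collagen) and none at 48 h by limma, where 2 had an unadjusted p under 0.05. All 5 measured neutrophil markers rose at each time, and their mean at 28 d was 5.91 to 6.36 after ligation, against 4.27 to 4.59 in sham livers. The neutrophil mean at 48 h was 5.65 to 7.92, against 5.05 to 5.23.

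Of 9 measured cholangiocyte markers 2 rose at 28 d and 3 at 48 h. Their mean at 28 d was 5.50 to 7.96 in ligated control livers, against 4.97 to 5.85 in sham livers, and at 48 h 5.72 to 6.39, against 4.89 to 5.02. Btc did not follow this mean within ligated control liver at 28 d, where it was highest on the array with the lowest cholangiocyte mean. In JNK1Δhepa liver Btc and this mean ran in the same order over the arrays at both times. Btc there spanned only 6.22 to 6.28 at 48 h, so its order at that time rests on small differences. The lowest values of Btc and of this mean shared an array in ligated control and JNK1-/- liver at 48 h, but not in JNK1-/- liver at 28 d. A link was not tested. Of 9 macrophage markers 6 rose at 28 d and 3 at 48 h, of 6 mesothelial markers 4 rose at 28 d and 0 at 48 h (1 at an unadjusted p under 0.05), and of 8 endothelial markers 4 fell at 28 d and 1 at 48 h. Among 9 hepatocyte markers 3 fell at 28 d and 2 at 48 h, and the hepatocyte mean lay between 12.66 and 12.94 on all 24 arrays. That mean was 12.66 to 12.82 in ligated control livers at 28 d, against 12.85 to 12.91 in sham livers. At 48 h it was 12.71 to 12.75 after ligation, against 12.88 to 12.89 on the arrays labelled control sham. The ligated mutants of 48 h read 12.89 to 12.94 (JNK1-/-) and 12.76 to 12.82 (JNK1Δhepa). Mast cell and basophil markers included 2 of 5 that fell at 28 d, and of 5 lymphoid markers none was called at either time by limma, with 1 at an unadjusted p under 0.05 each time.

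The ligated mutants were next set against ligated control liver. By limma none of the 7 genes passed in any of these comparisons. Over all genes the share called was 0.627% for JNK1-/- at 28 d, 2.3% for JNK1-/- at 48 h, 0.228% for JNK1Δhepa at 28 d and 0% for JNK1Δhepa at 48 h, where 607 genes had an unadjusted p under 0.05. At an unadjusted p under 0.05 the number of the 7 was 2, 3, 1 and 1 in that order, beside 12.4%, 15.4%, 14.9% and 3.23% of all genes. Both mutants are compared with the same control arrays, so their differences are not independent.

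**Figure D3:**
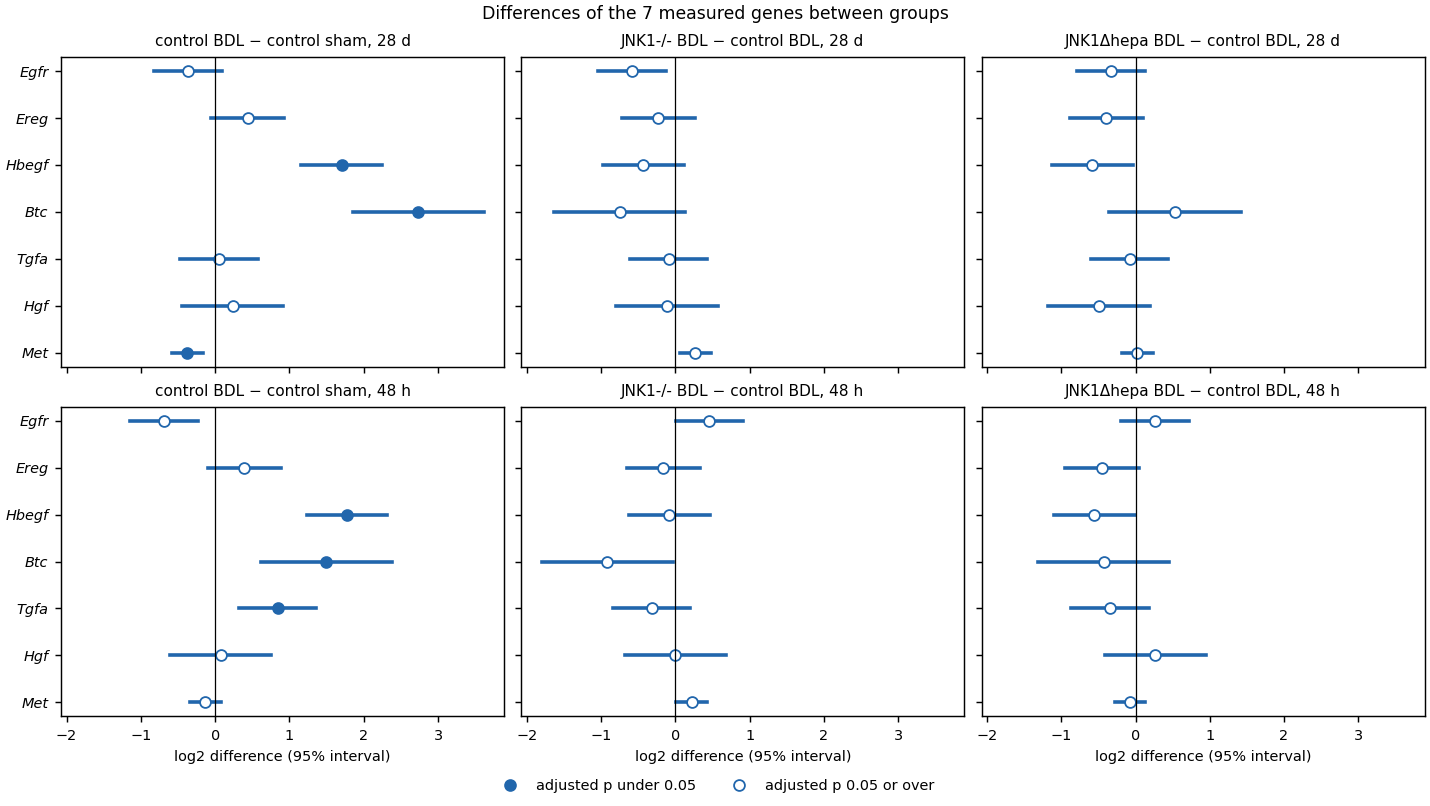
Log2 differences (x axes, 95% intervals from limma) of the 7 measured genes for ligated control against sham liver and for each ligated mutant against ligated control liver, 28 d in the upper and 48 h in the lower row. Filled points mark an adjusted p under 0.05: Hbegf, Btc and Met at 28 d and Hbegf, Btc and Tgfa at 48 h in control liver, and none in the mutant comparisons.

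For Egfr in JNK1-/- liver, 28 d of ligation gave 10.55, 11.04 and 11.46, against 11.94, 11.55 and 11.31 in ligated controls. The 48 h livers gave 12.01, 11.91 and 12.13, against 11.64, 11.19 and 11.84, so that the mutant lay above the controls at that time without overlap. The difference was -0.58 at 28 d (95% interval -1.04 to -0.13, adjusted p = 0.266) and 0.46 at 48 h (0.00 to 0.92, adjusted p = 0.32). The change of the difference between the times was -1.04 (SE 0.31, adjusted p = 0.11), in a comparison where 0.744% of all genes were called and 1 of the 7 had an unadjusted p under 0.05. It passed without replicate 3 of the ligated controls at 28 d (-1.19, adjusted p = 0.0491) and in no other fit that left out 1 array.

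In JNK1Δhepa liver Egfr read 11.72, 11.06 and 11.03 at 28 d and 11.98, 11.94 and 11.54 at 48 h. Its differences from ligated control were -0.33 (95% interval -0.78 to 0.13) at 28 d and 0.27 (-0.19 to 0.72) at 48 h. Replicate 1 at 28 d, with Mapk8 at the control level, had the highest Egfr of its group, and without it the 28 d difference was -0.56 (adjusted p = 0.334). Without control replicate 1 it was -0.16 (adjusted p = 0.729). The change between the times was -0.59 (95% interval -1.24 to 0.05, adjusted p = 0.722), and 0% of all genes passed in that comparison, with 1338 at an unadjusted p under 0.05 and none of the 7.

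Hbegf was 6.23, 6.11 and 6.53 in JNK1-/- livers and 6.44, 6.00 and 5.97 in JNK1Δhepa livers at 28 d, against 6.89, 6.37 and 6.91 in ligated controls. The JNK1Δhepa difference was -0.58 (95% interval -1.13 to -0.04, adjusted p = 0.301), and -0.73 (adjusted p = 0.325) without the array whose Mapk8 stood at the control level. The JNK1-/- difference at 28 d was -0.43 (95% interval -0.98 to 0.11). At 48 h the readings were 5.98, 7.01 and 6.92 in JNK1-/- livers and 6.28, 6.29 and 5.92 in JNK1Δhepa livers, against 6.26, 6.95 and 6.94 in ligated controls. The differences then were -0.08 (95% interval -0.62 to 0.46) for JNK1-/- and -0.56 (-1.10 to -0.01, adjusted p = 1) for JNK1Δhepa. Without JNK1-/- replicate 1 its difference was 0.25 (adjusted p = 0.767). All mutant values of Hbegf nevertheless lay above every sham liver.

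Btc read 7.15, 7.51 and 7.52 in JNK1-/- livers and 9.52, 8.47 and 8.04 in JNK1Δhepa livers at 28 d, against 9.31, 7.60 and 7.52 in ligated controls. The differences from control were -0.75 (95% interval -1.63 to 0.13, adjusted p = 0.499) for JNK1-/- and 0.53 (-0.35 to 1.42, adjusted p = 0.597) for JNK1Δhepa. Replicate 1 was the highest array in both the JNK1Δhepa and the control group, and these are the 2 arrays that correlated best with each other. Without JNK1Δhepa replicate 1 its difference from control was 0.11 (adjusted p = 0.957), and without control replicate 1 it was 1.12 (adjusted p = 0.0631). Between arrays of the same number JNK1Δhepa was higher by 0.21, 0.87 and 0.52, and each of these fits leaves 1 array of number 1 without its counterpart. With the replicate number as a block the difference of 0.53 had adjusted p = 0.603. The JNK1-/- difference was -0.17 (adjusted p = 0.927) without control replicate 1.

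The JNK1-/- and JNK1Δhepa livers at 28 d did not overlap in Btc. JNK1-/- lay lower by a log2 difference of -1.28 (95% interval -2.17 to -0.40), with adjusted p = 0.13, so the call was not made. It was -0.86 (adjusted p = 0.528) without JNK1Δhepa replicate 1. In this comparison 0.962% of all genes were called and none of the 7, of which 2 had an unadjusted p under 0.05.

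At 48 h Btc was 4.69, 6.35 and 6.24 in JNK1-/- livers and 6.28, 6.25 and 6.22 in JNK1Δhepa livers, against 6.95, 6.39 and 6.70 in ligated controls. Replicate 1 of JNK1-/- lay below every sham liver and was the only ligated liver to do so. The JNK1-/- difference was -0.92 (95% interval -1.80 to -0.03, adjusted p = 0.302), and -0.39 (adjusted p = 0.783) without that array. The JNK1Δhepa difference was -0.43 (95% interval -1.31 to 0.45).

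Tgfa at 48 h was 7.23, 8.58 and 8.40 in JNK1-/- livers and 8.06, 8.02 and 8.05 in JNK1Δhepa livers, against 7.87, 8.55 and 8.74 in ligated controls. The same JNK1-/- replicate 1 was again below every sham liver. Its group differed from control by -0.32 (95% interval -0.84 to 0.20), and by 0.10 (adjusted p = 0.898) without it, while JNK1Δhepa differed by -0.34 (-0.86 to 0.18). At 28 d the 9 ligated livers of all genotypes lay between 7.57 and 8.00, and the mutant differences were -0.09 for JNK1-/- and -0.08 for JNK1Δhepa.

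Ereg at 28 d read 4.72, 5.26 and 5.27 in JNK1-/- livers and 4.86, 5.17 and 4.73 in JNK1Δhepa livers, inside the range of the ligated controls. The JNK1Δhepa difference was -0.39 (adjusted p = 0.464) and became -0.75 (adjusted p = 0.0199) without control replicate 1. The JNK1-/- difference was -0.23 (adjusted p = 0.753), and -0.59 (adjusted p = 0.208) without that array. At 48 h Ereg read 4.74, 5.04 and 4.81 in JNK1-/- livers and 4.42, 4.70 and 4.60 in JNK1Δhepa livers. The differences from control then were -0.16 and -0.45 (95% interval -0.94 to 0.04).

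Met was 9.36, 9.37 and 9.53 in JNK1-/- livers and 9.13, 9.23 and 9.17 in JNK1Δhepa livers at 28 d, against 8.87, 9.42 and 9.16 in ligated controls. The 48 h livers read 9.48, 9.51 and 9.54 in JNK1-/- livers and 9.22, 9.30 and 9.13 in JNK1Δhepa livers, against 9.27, 9.32 and 9.28 in ligated controls. JNK1-/- lay above JNK1Δhepa on every array at both times.

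Relative to ligated control, Met in JNK1-/- differed by 0.27 at 28 d (95% interval 0.06 to 0.48, adjusted p = 0.254) and by 0.22 at 48 h (0.01 to 0.43, adjusted p = 0.291). Without control replicate 2 at 28 d the difference was 0.41 with adjusted p = 0.022, and without control replicate 1 it was 0.13 with adjusted p = 0.621. JNK1Δhepa differed from control by 0.02 at 28 d and -0.07 at 48 h. JNK1-/- differed from JNK1Δhepa by 0.25 at 28 d (adjusted p = 0.207) and 0.29 at 48 h (95% interval 0.09 to 0.50, adjusted p = 0.136). Among all genes 2.44% were called in the 48 h comparison of the mutants and none of the 7, of which Met had the only unadjusted p under 0.05.

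Hgf at 28 d read 7.90, 8.05 and 8.95 in JNK1-/- livers and 7.37, 8.22 and 8.16 in JNK1Δhepa livers. The differences from control were -0.11 (95% interval -0.79 to 0.57) for JNK1-/- and -0.49 (-1.17 to 0.19, adjusted p = 0.515) for JNK1Δhepa. The JNK1Δhepa difference was -0.22 (adjusted p = 0.871) without its replicate 1 and -0.81 (adjusted p = 0.129) without control replicate 1, and without that control array the JNK1-/- difference was -0.43 (adjusted p = 0.7). At 48 h it read 8.39, 8.79 and 7.80 in JNK1-/- livers and 8.77, 8.70 and 8.32 in JNK1Δhepa livers, with differences from control of 0.00 (95% interval -0.68 to 0.68) and 0.27 (-0.41 to 0.95). The stellate marker mean at 28 d was 7.36 to 8.49 in JNK1-/- livers and 7.02 to 7.66 in JNK1Δhepa livers, against 7.33 to 9.48 in ligated controls, and its part in the Hgf values was not tested.

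Sham livers of 28 d differed from those labelled 48 h in none of the 7 genes, by log2 differences of -0.27 to 0.24, with none at an unadjusted p under 0.05 and 0.133% of all genes called. The ligation effect differed between the times in 1.3% of all genes and in none of the 7, of which Tgfa alone had an unadjusted p under 0.05.

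Ordered by group mean, Btc ran from JNK1Δhepa at 28 d (8.68 ± 0.76, SD, n = 3) through ligated control at 28 d (8.14 ± 1.01) and JNK1-/- at 28 d (7.39 ± 0.22) to ligated control at 48 h (6.68 ± 0.28). Then followed JNK1Δhepa at 48 h (6.25 ± 0.03), JNK1-/- at 48 h (5.76 ± 0.92), sham at 28 d (5.41 ± 0.02) and the arrays labelled sham 48 h (5.18 ± 0.08). Neighbours were farther apart than either SD in 3 of these 7 steps: below JNK1-/- at 28 d, below ligated control at 48 h, and between the sham groups. Among the first 3 groups the steps between neighbours were smaller than the SD of ligated control at 28 d. JNK1Δhepa and JNK1-/- at 28 d, which are not neighbours in this order, did not overlap, as given above.

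For Hbegf the order was ligated control at 28 d (6.72 ± 0.30) and 48 h (6.72 ± 0.39), JNK1-/- at 48 h (6.64 ± 0.57) and 28 d (6.29 ± 0.22), JNK1Δhepa at 48 h (6.16 ± 0.21) and 28 d (6.14 ± 0.26), then sham at 28 d (5.02 ± 0.45) and 48 h (4.94 ± 0.12). The step from ligated to sham livers alone exceeded both SDs. Egfr had its highest mean on the arrays labelled sham 48 h (12.24 ± 0.06) and its lowest in JNK1-/- at 28 d (11.02 ± 0.45), and of its 7 steps the first exceeded both SDs. Hgf had no such step between its highest mean, 8.60 ± 0.24 in JNK1Δhepa at 48 h, and its lowest, 7.92 ± 0.48 in JNK1Δhepa at 28 d. Tgfa had 1 such step, below the ligated groups of 48 h, Met had 2 and Ereg 1.

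Other genes of EGF receptor and MET signalling were read from 9 lists of 96 genes, 89 of them measured. In ligated against sham control liver 24 rose and 12 fell at 28 d, and 13 rose and 4 fell at 48 h. These shares stand beside the 11.7% and 11.5%, and the 5.61% and 3.83%, of all genes given above. In JNK1Δhepa against control none passed at either time by limma, while 30 of the 89 at 28 d and 6 at 48 h had an unadjusted p under 0.05, beside 14.9% and 3.23% of all genes.

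**Figure D4:**
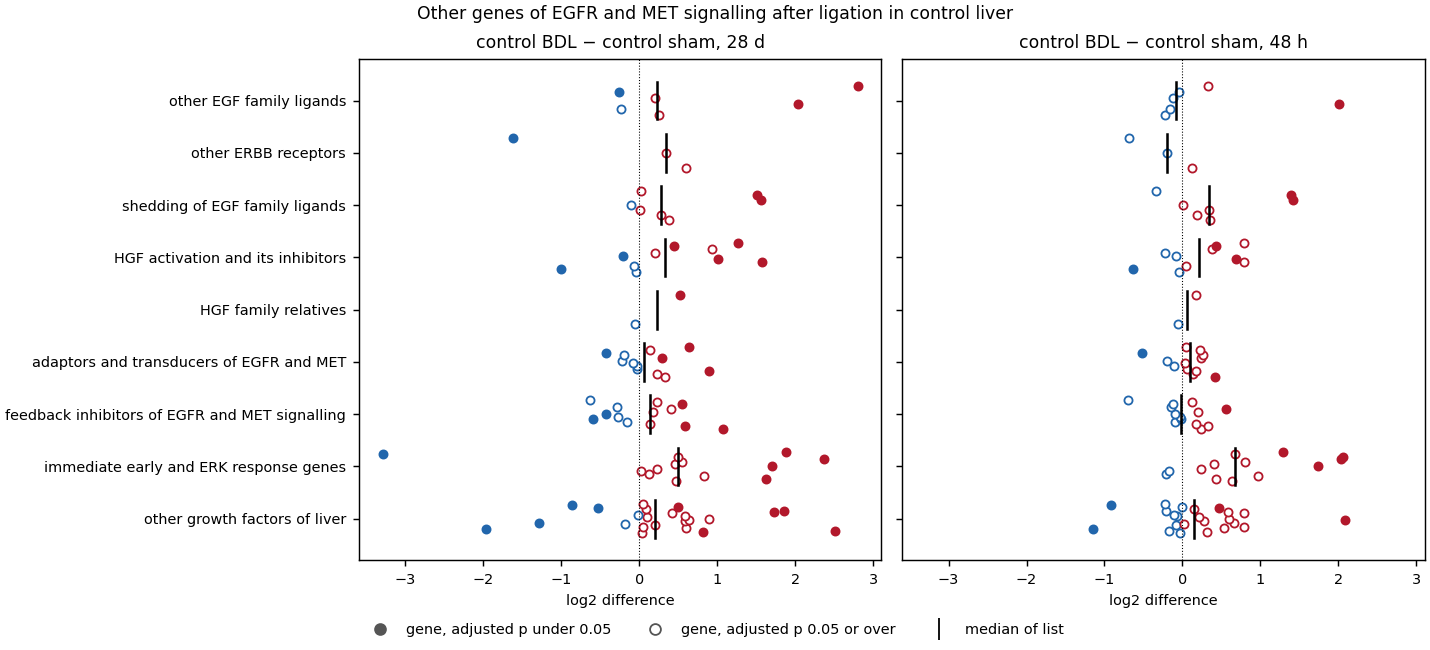
Log2 differences (x axes) of each measured gene in 9 lists of EGF receptor and MET signalling in ligated against sham control liver, 28 d left and 48 h right, with red for higher and blue for lower after ligation; filled points have an adjusted p under 0.05 and vertical bars mark list medians. Nrg4 at 28 d (2.80) and Nrg1 at both times (2.03 and 2.01) stand apart among the other EGF family ligands, and Rhbdf1 and Rhbdf2 among the genes of ligand shedding.

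Among 6 other EGF family ligands, Nrg1 and Nrg4 rose and Nrg3 fell at 28 d, and Nrg1 rose at 48 h. Nrg1 and Nrg4 encode neuregulins, of which that of Nrg1 binds ERBB3 and ERBB4 and that of Nrg4 binds ERBB4. Nrg1 read 6.44, 6.98 and 7.63 in ligated control livers at 28 d, against 4.99, 4.83 and 5.12 in sham livers, a 4.10-fold rise (SE of the log2 difference 0.33, adjusted p = 0.000173 by limma). The rise at 48 h was 4.02-fold (adjusted p = 0.000671), and it was called in all 14 alternatives at 28 d and all 15 at 48 h. The groups did not overlap at either time, and 17 of the 18 ligated livers read above every sham liver. In ligated JNK1-/- livers at 48 h Nrg1 differed from ligated control by -1.235 (SE 0.33, adjusted p = 0.0536 by limma). That difference lay near the threshold without passing.

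Nrg4 read 9.27, 9.05 and 8.25 in ligated control livers at 28 d, against 6.49, 5.64 and 6.03 in sham livers, a 6.97-fold rise (adjusted p = 0.000109) called in all 14 alternatives. In control liver at 48 h its difference was 0.33 (adjusted p = 0.718), and the ligation effect differed between the times by 2.47 (adjusted p = 0.0516). Both values depend on the arrays labelled sham 48 h. The log2 difference of Nrg4 between sham livers of 28 d and those arrays was -1.03 (unadjusted p = 0.0277, adjusted p = 0.567 by limma). Against the sham livers of 28 d the 48 h rise would thus be larger.

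The ligated JNK1-/- livers of 48 h stood apart in Nrg4. They read 8.88, 9.73 and 9.54, against 7.00, 6.88 and 8.36 in ligated controls. That was a 3.91-fold higher level (log2 difference 1.97, SE 0.44, adjusted p = 0.0198), which passed in 9 of 14 alternatives and failed in 4 of the 6 that left out 1 array. The difference changed by -2.91 between the times (adjusted p = 0.0332), and that call held in 13 of 20 alternatives. Against JNK1Δhepa livers at 48 h, which read 8.23, 8.07 and 6.80, the JNK1-/- difference was 1.68 (adjusted p = 0.045, 4 of 14 alternatives). Egf and Epgn did not pass at either time.

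Of the 3 other ERBB receptors Erbb4, a receptor for neuregulins, betacellulin and heparin-binding EGF-like growth factor, fell at 28 d. It read 4.13, 5.82 and 6.48 in ligated control livers, against 7.55, 6.59 and 7.16 in sham livers, a log2 difference of -1.62 (SE 0.45, adjusted p = 0.0115). Without ligated replicate 1 it was -0.95 with adjusted p = 0.0749, and without sham replicate 1 it was -1.40 with adjusted p = 0.0591. None of the 3 passed at 48 h by limma, nor had any an unadjusted p under 0.05.

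Shedding of EGF family ligands was covered by 7 genes, of which Rhbdf1 and Rhbdf2 rose at both times and none fell. They encode iRhom proteins, which carry the shedding protease ADAM17 to the cell surface. Rhbdf1 read 7.83, 7.50 and 7.66 in ligated control livers at 28 d, against 6.09, 5.98 and 6.26 in sham livers, a 2.94-fold rise (adjusted p = 2.66e-05). The rise at 48 h was 2.68-fold (adjusted p = 0.000298), and every alternative at both times kept these calls. Rhbdf2 rose 2.86-fold at 28 d (adjusted p = 0.00226) and 2.64-fold at 48 h (adjusted p = 0.00999), and all 18 ligated livers read above all 6 sham livers. Adam17 itself did not pass. Its difference after ligation at 48 h was 0.34 (unadjusted p = 0.00992, adjusted p = 0.0799 by limma).

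For HGF activation and its inhibitors, 10 of 11 genes were measured, of which 4 rose and 2 fell at 28 d, and 2 rose and 1 fell at 48 h. Hgfac, the HGF activator protease of liver, read 9.67, 9.83 and 9.59 in ligated control livers at 28 d, against 10.81, 10.58 and 10.70 in sham livers. It fell by 1.001 (SE 0.11, adjusted p = 3.57e-06) at 28 d and by 0.64 (adjusted p = 0.00119) at 48 h, with the call kept in every alternative at both times. Plat and Plau, the tissue and urokinase plasminogen activators, rose by 1.57 (adjusted p = 0.000189) and 1.01 (adjusted p = 0.0018) at 28 d. Plau rose by 0.69 at 48 h (adjusted p = 0.0496), a call kept in 6 of 15 alternatives. St14, the protease matriptase, rose by 1.27 at 28 d (adjusted p = 0.0491), but by 0.39 (adjusted p = 0.309) without ligated replicate 3. Spint2, an inhibitor of HGF activator, rose by 0.43 at 48 h (adjusted p = 0.00942), but by 0.26 (adjusted p = 0.101) with each array centred on its median.

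Hgfac was also the gene of this list that differed in JNK1-/- liver at 28 d. It read 10.27, 10.17 and 10.35 in ligated JNK1-/- livers, against 9.67, 9.83 and 9.59 in ligated controls, with a log2 difference of 0.57 (SE 0.11, adjusted p = 0.0197). The groups did not overlap, and the call held in 8 of 14 alternatives. The difference changed by 0.73 between the times (adjusted p = 0.0385, 10 of 20 alternatives). At 48 h Spint2 was lower in JNK1-/- liver by a log2 difference of -0.39 (adjusted p = 0.0494, 6 of 14 alternatives). Mst1r, the receptor of the HGF relative MSP, rose by 0.52 at 28 d in ligated control liver (adjusted p = 0.0207), but by 0.31 (adjusted p = 0.136) without ligated replicate 3, and Mst1 did not pass.

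Of 12 measured adaptors and transducers, 3 rose and 1 fell at 28 d, and 1 rose and 1 fell at 48 h. Gab2, a docking adaptor, rose by 0.89 at 28 d (adjusted p = 9.59e-05), and Sos1, an activator of RAS, fell by 0.43 at 28 d and by 0.52 at 48 h (adjusted p = 0.0214 and 0.0138). Among 13 feedback inhibitors 3 rose and 2 fell at 28 d, and 1 rose at 48 h. Cblb, a ubiquitin ligase for activated receptors, rose by 1.07 (adjusted p = 0.000624), and Lrig1, a membrane protein that promotes EGF receptor turnover, fell by 0.60 (adjusted p = 0.000108) at 28 d. Sos2 was lower in JNK1-/- than in JNK1Δhepa liver at 28 d by a log2 difference of -0.41 (adjusted p = 0.0201).

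Immediate early and ERK response genes had 4 of 13 members that rose at each time, and 1 that fell at 28 d. Ier3, which responds early to growth factors, rose 5.17-fold at 28 d (adjusted p = 0.000873) and 4.11-fold at 48 h (adjusted p = 0.00744). Plaur, the urokinase receptor, rose by 1.88 at 28 d and 1.29 at 48 h, Fos by 1.70 and 1.74. Phlda1 fell by 3.29 at 28 d (adjusted p = 1.32e-05), a change that differed between the times by -3.97 (adjusted p = 0.00178). Part of that lies in the sham arrays, since Phlda1 was higher by 1.355 in sham livers of 28 d than on those labelled 48 h. That sham difference had an unadjusted p of 0.00409 and an adjusted p of 0.344 by limma. Myc rose by 2.06 at 48 h (adjusted p = 0.00145). Sham livers of 28 d read higher in Myc than the arrays labelled sham 48 h by 2.52 (adjusted p = 0.00727), and against them the 48 h difference was -0.45 (adjusted p = 0.544).

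Other growth factors of liver were listed as 23 genes, of which 5 rose and 4 fell at 28 d, and 2 rose and 2 fell at 48 h. Ccn2, a matricellular factor induced by TGF-beta, rose by 2.51 at 28 d, and Tgfb3 and Tgfb2 by 1.86 and 1.72. Fgf1, an acidic fibroblast growth factor, fell by 1.96 at 28 d (adjusted p = 4.33e-05) and by 1.15 at 48 h (adjusted p = 0.0114). Pdgfa, a mitogen of mesenchymal cells, rose by 2.08 at 48 h (adjusted p = 0.000697), called in all 15 alternatives. Pdgfc, its relative, was lower in JNK1-/- livers at 48 h, by a log2 difference of -1.23 against ligated control (adjusted p = 0.0147) and -1.63 against JNK1Δhepa (adjusted p = 0.00194). Vegfb was the list member with opposite called directions, at -0.54 at 28 d and 0.47 at 48 h, and its ligation effect differed between the times by -1.01 (adjusted p = 0.0181). Its 48 h call held in 6 of 15 alternatives, and against the sham arrays of 28 d the difference was 0.15 (adjusted p = 0.616). For Ccn2 the JNK1-/- difference from control changed by -1.96 between the times (adjusted p = 0.0447, 12 of 20 alternatives).

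The genes whose values ran most like each of the 7 over the 24 arrays were found by Pearson's r across all symbols. Arrays of 1 group share genotype, surgery and time, so these values describe group differences as well as scatter. Btc ran with Pde7a (r = 0.97), Myh10 (0.96) and Slc5a6 (0.94), and Hbegf with Myl12a (0.92), F11r and Bcl10 (0.91 each). Hgf ran with Gja1 (0.89), Emilin1 (0.86) and Sema6d (0.84), and Tgfa with Gcnt2 (0.88), Slc11a2 (0.85) and Rhou (0.84). Egfr ran with Pxk (0.88), Cand1 (0.86) and Zfp180 (0.83), and Met with Vps13c (0.85), Gramd3 (0.83) and F5 (0.81). For Ereg the closest were Svep1 (0.78), Cpxm1 (0.77) and Ccrl2 (0.76). Of the ligands, Btc and Hbegf correlated with each other at 0.56, although both rose with ligation.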

How the data were processed

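Liver RNA was measured on 24 arrays. The deposited values are log2 intensities per probe set made by the authors with RMA, per the submitters' processing notes; neither its version nor the genome build is given in the sources used here. Of 35556 probe sets, 21218 carried 1 gene symbol, 1881 several and 12457 none in the platform annotation. The brightest probe set stood for each of 18820 symbols. A linear model was used, with limma 3.58.1 run under R 4.3.3, holding 8 group means over 24 arrays (16 residual degrees of freedom), with Benjamini-Hochberg adjustment over all symbols of a comparison and calls at an adjusted p under 0.05. The 12 comparisons were ligation against sham at each time, sham between times, each mutant against control and against each other, and changes between times. The number of arrays limits the precision (median SE of a difference 0.129). The labels number replicates without naming separate animals, so p-values measure only the spread between these samples, which may be technical.

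The genes, lists and alternatives were chosen with earlier results of these data known. Text names the 7 genes and the 3 symbols most correlated with each. List genes were picked from the strongest calls, up to 3 upward and 3 downward per list and comparison, and not all of these are named. Among those left out at 48 h after ligation, by limma, were Cbl (0.42, adjusted p = 0.029), Spred1 (0.56, adjusted p = 0.0278) and Wnt2 (-0.92, adjusted p = 0.021). Called changes of the ligation effect between the times in Ccn2, Tgfb3 and Lrig1 were also left out. Egf, Epgn, Adam17 and Mst1 were chosen after their values were seen. Scripts were tested on simulated data. Promoters come from RefSeq on GRCm38.p6. Same-numbered arrays deviated together, with all correlations over 0.1, in JNK1Δhepa against control at 28 d alone (0.501, 0.244 and 0.161). In JNK1-/- against control at 28 d the correlations were 0.179, 0.078 and 0.501, of which 1 missed that cut. What a number marks is not stated.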

Additional observations from a re-analysis of the deposited data

How the results depend on the processing

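Over 1316 alternative values for 84 differences of the 7 genes, none reversed, 18 lost a call and 16 gained one. The other 1282 stayed on their side of the threshold, and 83 uncalled values changed sign. Only the differences called in the main analysis, 3 at each time after ligation, could lose a call. Hbegf kept it in all 15 alternatives at 48 h and all 14 at 28 d. Btc kept it in 7 of 15 at 48 h and 14 of 14 at 28 d. Tgfa kept it in 8 of 15 at 48 h and Met in 11 of 14 at 28 d. Of 3 genes called after ligation at 48 h, 1 was left (Hbegf) with the sham arrays of 28 d. Leaving out 1 array gave 1 to 2 genes there, and 0 to 1 for JNK1-/- at 28 d, for JNK1Δhepa at 28 d and for the JNK1-/- change between times. Array weights gave 1 gene for JNK1Δhepa at 28 d (Ereg), 2 for JNK1-/- against JNK1Δhepa at 48 h (Hbegf and Met), 1 at 28 d (Btc) and 1 for the JNK1-/- change between times (Egfr), where the main analysis called 0. With the replicate block the counts were 3 at 28 d and 3 at 48 h after ligation and 0 elsewhere, so it changed no count of the 7 genes; over all genes it moved JNK1Δhepa at 28 d to 11, against 43 without it, and JNK1-/- against JNK1Δhepa at 28 d to 289, against 181. Without control replicate 1 the JNK1Δhepa count at 28 d over all genes was 1985.

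When arrays were centred at their own medians, the all-gene median shifted by -0.17 at 48 h and -0.20 at 28 d after ligation, 0.14 for JNK1Δhepa at 28 d, -0.11 for JNK1-/- against JNK1Δhepa at 28 d and 0.11 for the JNK1Δhepa change between times. It raised the count of all genes called after ligation to 6907 at 28 d, against 4360, and to 3267 at 48 h, against 1775. Under it Egfr and Met passed at 48 h (adjusted p = 0.0174 and 0.042), and Tgfa did not (adjusted p = 0.0557). Btc at 48 h missed after quantile normalization (adjusted p = 0.051). Met at 28 d missed in a fit to the compared groups alone (adjusted p = 0.188). With 3 arrays per group, small differences of single genes could not be separated from the spread.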
